A study of Mus musculus with 16 samples.

Results

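The genes described here encode the RNA-binding proteins of the MBNL, CELF and RBFOX families that are found in muscle, and the genes at the myotonic dystrophy loci. They were taken by name from the table of gene counts, with each Entrez identifier matched to its mouse symbol. They are Mbnl1, Mbnl2, Mbnl3, Celf1, Celf2, Rbfox1, Rbfox2, Dmpk, Six5 and Cnbp, which makes 10 genes of 24454 in the table. All 10 had enough reads to be among the 15487 genes tested.

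Myotonic dystrophy type I is caused by a long CTG repeat at the end of *DMPK*, and type II by a CCTG repeat in an intron of *CNBP*. RNA that carries these repeats folds into hairpins and gathers MBNL proteins in nuclear foci, so that less MBNL protein is free to act. MBNL proteins promote adult splicing patterns in muscle, CELF1 promotes fetal patterns at many of the same exons, and RBFOX proteins act on an overlapping set of exons. The gene counts hold the amount of each transcript, not its splicing, nor where in the cell its protein is.

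Gene counts came from gastrocnemius muscle of 3-month-old mice. HSALR mice carry a human skeletal actin (*HSA*) transgene with long CTG repeats, expressed in skeletal muscle alone from the *HSA* promoter, so the repeat is not in *Dmpk*. They were homozygous for it. The controls were FVB/N mice, the background strain. Vehicle was given to 5 HSALR and 3 control mice, and AICAR to 5 HSALR and 3 control mice. AICAR activates the energy sensor AMPK and was given at 500 mg/kg for 7 days. Each library came from 1 mouse, and 1 group mean per condition was compared, with each mouse named below by its label.

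Each library held 64890014 to 81987726 counted reads, and pairs of libraries within a group differed beyond counting error in all 26 pairs (chi-square per degree of freedom 24.0 to 134). The 8 muscle fibre markers summed to 117532 to 171594 normalized CPM (reads of a gene scaled to a common library total) across the libraries. The human transgene has no row of its own in the mouse table, so the targeted gene could not be checked. RNA of epidermis was present in 6 of 16 libraries by Krt14 above 1 normalized CPM, of which 4 were HSALR vehicle, 1 control vehicle and 1 control AICAR. The summed level of the 8 epidermal markers was 0.612 to 187 in HSALR vehicle, 0.256 to 92.3 in control vehicle, 0.243 to 104 in control AICAR and 0.242 to 0.371 in HSALR AICAR, where 2 of the 8 were at 0 in every library. The trend of the log2 level with transcript length also differed between genotypes, at 0.02 to 0.09 per doubling of length in the 6 control libraries and -0.10 to 0.01 in the 10 HSALR libraries.

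Per length, Cnbp was the most abundant of the 10 genes and Mbnl3 the least in every group. In control vehicle muscle the order was Cnbp (286 ± 9.59 normalized CPM per kb, SD, n = 3), Dmpk (105 ± 2.69), Mbnl1 (82.5 ± 3.51), Mbnl2 (52.4 ± 3.35), Rbfox1 (38.7 ± 1.44), Celf1 (16.4 ± 0.985), Rbfox2 (14.6 ± 1.46), Celf2 (11.3 ± 0.514), Six5 (1.38 ± 0.0683) and Mbnl3 (0.0449 ± 0.0172). Celf1 and Rbfox2 overlapped between libraries, and every other pair of neighbours in that order was separate. The order in HSALR vehicle muscle was the same, again with an overlap of Celf1 and Rbfox2 alone. After AICAR, Mbnl1, Mbnl2 and Dmpk lay together. Their levels were 76.8 ± 6.14, 70.8 ± 16.8 and 70.2 ± 4.80 normalized CPM per kb in control AICAR muscle (n = 3), and 68.0 ± 2.37, 74.2 ± 6.35 and 66.9 ± 7.49 in HSALR AICAR muscle (n = 5), with overlapping libraries in each case.

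**Figure D1:**
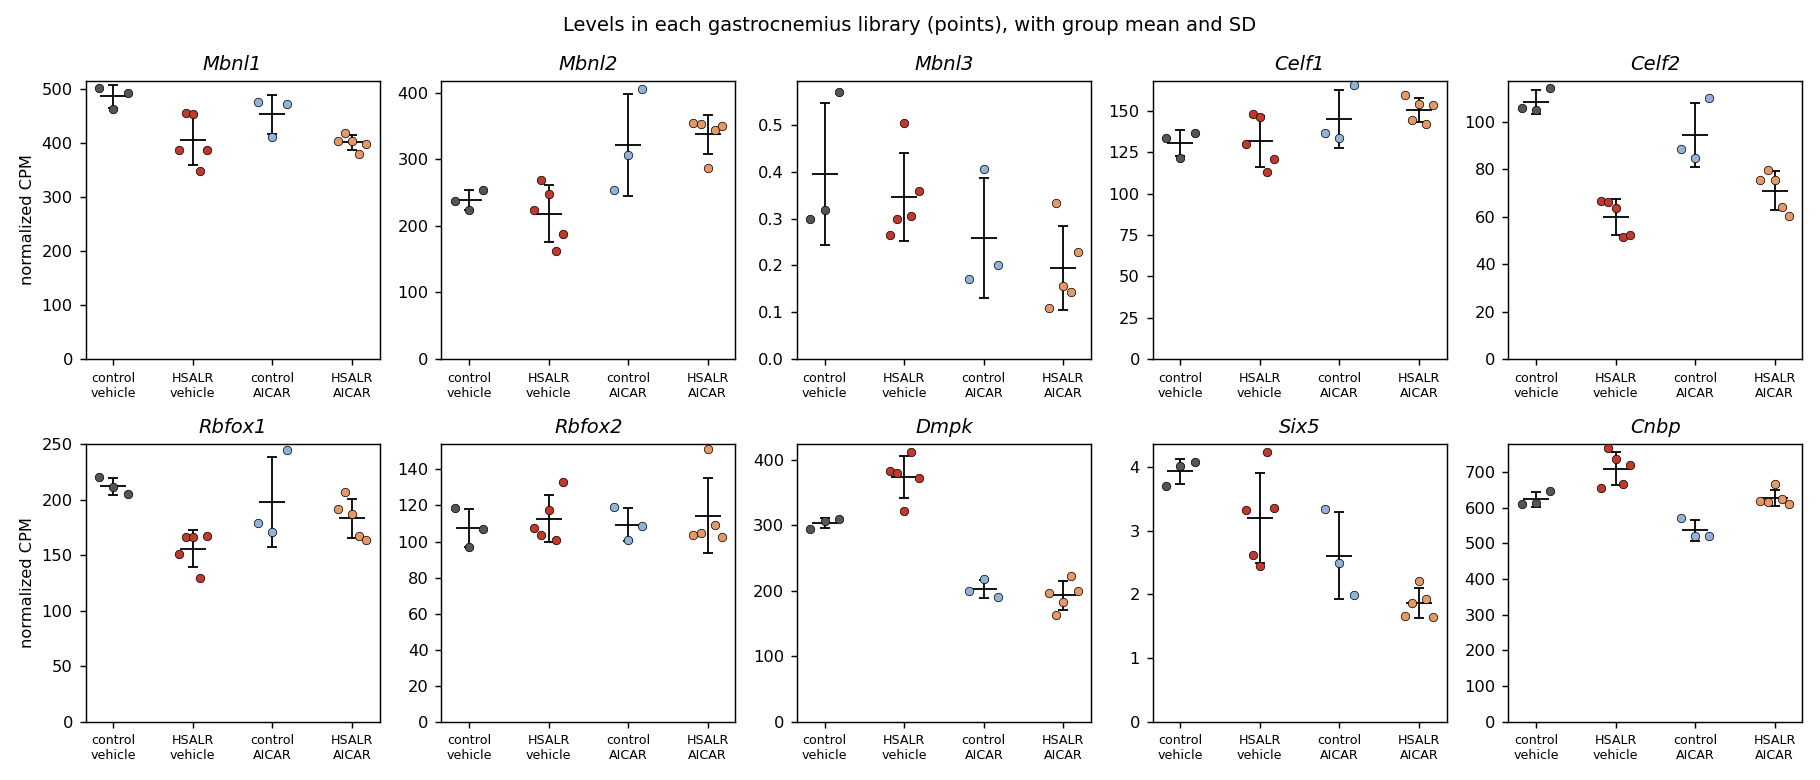
Normalized CPM of the 10 genes (y axis, from 0, a scale of its own in each panel) in the 4 groups (x axis), with 1 point per library and the group mean and SD in black. Dmpk sits at 163 to 222 in the HSALR AICAR libraries and at 322 to 412 in the HSALR vehicle libraries, and Celf2 at 51.3 to 66.4 in HSALR vehicle and 105 to 114 in control vehicle.

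The comparison of genotypes after vehicle called 5 of the 10 genes at an adjusted p under 0.05 (edgeR quasi-likelihood test, adjusted over all 15487 genes), where 26.9% of all tested genes were called. Dmpk and Cnbp were higher in HSALR muscle (15.4% of all genes were called higher), and Mbnl1, Celf2 and Rbfox1 were lower (11.5% of all genes). After AICAR the same comparison called 2 of 10, with 21.8% of all genes called. Cnbp was higher (12.2% of all genes) and Celf2 lower (9.64% of all genes). The median log2 fold change of the 10 genes was -0.16 after vehicle and -0.09 after AICAR, beside 0.01 and 0.00 for all genes. These are descriptions, with no test of the 10 genes as a set. Muscle fibre markers moved in the same comparisons, with 4 of 8 called under each treatment, beside 26.9% and 21.8% of all genes. After vehicle the fast myosin gene Myh1 (1.52), the myoglobin gene Mb (0.79) and Acta1 (0.31), the mouse counterpart of the transgene, were higher in HSALR muscle and Ttn (-0.78) was lower. After AICAR Myh1 (1.499), Mb (1.18) and Acta1 (0.46) were higher and Myh4 (-0.67), another fast myosin gene, was lower. AICAR called 1 of 8 in HSALR muscle, Pvalb (-0.73, lower), beside 26.6% of all genes. It called 0 of 8 in control muscle, beside 13.2% of all genes, where 2 of the 8 had an unadjusted edgeR p under 0.05. Whether reads of the human transgene were counted in the Acta1 row was not tested. The part of the marker shifts in the values of the 10 genes was not tested.

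AICAR against vehicle called 4 of the 10 genes in HSALR muscle, beside 26.6% of all tested genes. Mbnl2 rose (13.7% of all genes were called higher), and Dmpk, Six5 and Cnbp fell (13.0% of all genes). In control muscle AICAR called 2 of 10, beside 13.2% of all genes. Both were lower, Dmpk and Cnbp, beside 4.77% of all genes called lower, and none was called higher, beside 8.40% of all genes. The median of the 10 genes was 0.00 in HSALR and -0.15 in control muscle, beside -0.02 and -0.01 for all genes. The 8 epidermal markers were all called lower with AICAR in HSALR muscle and none in control muscle, and the values with an epidermal score in the fit, or without those libraries, stand below beside each call of the 10 genes that they change. The 2 vehicle groups and the 2 AICAR groups each serve in more than 1 of these comparisons, so the comparisons are not independent of each other.

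**Figure D2:**
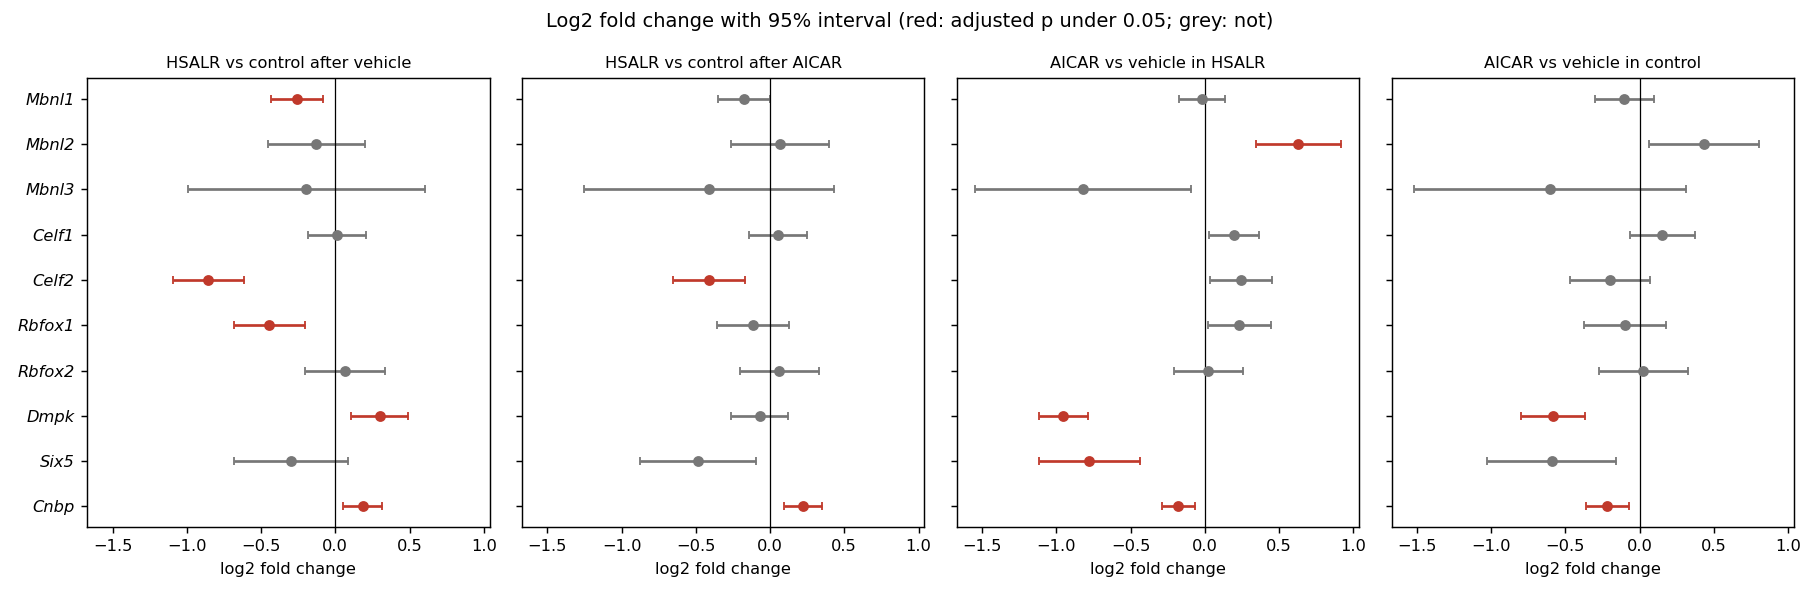
Log2 fold change (x axis) of the 10 genes (y axis) in 4 comparisons, as points with 95% intervals, red where the edgeR adjusted p is under 0.05 and grey where it is not. Dmpk lies at -0.95 with AICAR in HSALR and -0.58 in control muscle, and Mbnl2 at 0.63 and 0.43.

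Mbnl1 and Mbnl2 encode the muscleblind proteins that bind YGCY motifs in RNA and that CUG repeats retain, and Mbnl3 encodes the member that is mostly active in development and regeneration. Mbnl1 lies at chr3:60472559-60629750, Mbnl2 at chr14:120275652-120431698 and Mbnl3 at chrX:51113494-51205990 (GRCm38). Mbnl1 and Mbnl2 share a coding exon of 54 bases that MBNL proteins are known to regulate in their own transcripts and that favours a nuclear place of the protein. It is shown because gene counts sum the transcripts with and without it. It lies at chr3:60614683-60614736 in Mbnl1 (in 4 of 14 coding transcripts of GENCODE) and at chr14:120395712-120395765 in Mbnl2 (in 3 of 6), both on the plus strand. Written 5′ to 3′ with capitals at the bases that differ between the genes, the exons read
Mbnl1: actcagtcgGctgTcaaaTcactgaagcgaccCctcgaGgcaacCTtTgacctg
Mbnl2: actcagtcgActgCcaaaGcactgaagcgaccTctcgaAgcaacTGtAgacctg
They were identical at 46 of 54 bases (85.2%).

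Mbnl1 was at 502, 462.1 and 492 normalized CPM in control vehicle muscle (mice S445, S446 and S450) and at 386, 454.9, 452.1, 348 and 387 in HSALR vehicle muscle (S451, S452, S453, S458 and S459). Every HSALR library was below every control library, and S452 and S453 were close to the lowest control. Mbnl1 was lower in HSALR muscle by a log2 fold change of -0.26 ± 0.08 (SE), a fold of 0.836 with a 95% interval of 0.740 to 0.943, and an edgeR adjusted p of 0.0288. Scaled to Tbp, the reference gene of the study's quantitative PCR, the Mbnl1 change turned to 0.01 (edgeR adjusted p = 0.932), while the median of all genes then lay at 0.28, so that Mbnl1 stayed below that median. The call was also lost without control mouse S445 (log2 fold change -0.23, edgeR adjusted p = 0.109) or S450 (-0.25, 0.0802), without HSALR mouse S458 (-0.21, 0.052) or S459 (-0.24, 0.0581), and with the length trend of each library removed (-0.16, 0.141). It was lost as well with only the 2 groups compared (-0.26, edgeR adjusted p = 0.0834), with the epidermal score in the fit (-0.25, 0.0557) and without the libraries with epidermal RNA (-0.33, 0.0749).

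After AICAR, Mbnl1 was at 475, 410.4 and 471 normalized CPM in control muscle (S447, S448 and S449) and at 404, 418, 403, 379.5 and 397 in HSALR muscle (S454, S455, S460, S462 and S463). Control mouse S448 fell among the HSALR values. The genotype difference was -0.18 ± 0.08 on the log2 scale (edgeR adjusted p = 0.139), and -0.24 without the libraries with epidermal RNA (edgeR adjusted p = 0.0302). AICAR against vehicle gave -0.02 in HSALR muscle (95% interval -0.17 to 0.13, edgeR adjusted p = 0.877) and -0.10 in control muscle (-0.30 to 0.09, edgeR adjusted p = 0.506).

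Mbnl2 was the MBNL gene called with AICAR, in HSALR muscle. It was at 224, 268, 248, 163 and 188 normalized CPM in the HSALR vehicle libraries and at 354, 353, 286, 344 and 350.3 in the HSALR AICAR libraries, in the order of mice given above. The groups did not overlap, and the lowest AICAR value, 286 in S460, was above the highest vehicle value, 268 in S452. Mbnl2 rose with AICAR by a log2 fold change of 0.63 ± 0.13 (SE), a fold of 1.55 with a 95% interval of 1.27 to 1.89, and an edgeR adjusted p of 0.00322. The call held with each of the 16 mice left out in turn (0.54 to 0.72). It was lost without the libraries with epidermal RNA, which leaves 1 HSALR vehicle library (0.59, edgeR adjusted p = 0.135). In the same comparison 3 of 5 endothelial markers were called higher (list median 0.31), beside 13.7% of all genes. Of 5 markers of fibroblasts and fibro-adipogenic progenitors, 3 were called lower (list median -0.43), beside 13.0% of all genes. The summed levels of the 2 lists were 204 to 228 against 163 to 213 normalized CPM and 959 to 1285 against 1236 to 1657, after AICAR against vehicle. The part of these cells in the changes of Mbnl2, Dmpk, Six5 and Cnbp was not tested.

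In control muscle Mbnl2 was at 238, 223 and 254 normalized CPM after vehicle and at 255, 307 and 405 after AICAR. The groups did not overlap, but S447 at 255 was next to the highest vehicle library. The log2 fold change was 0.43 ± 0.17 (edgeR adjusted p = 0.111), and it passed the threshold without S447 (0.58, edgeR adjusted p = 0.0477) and when scaled to Tbp (0.63, edgeR adjusted p = 0.0179, with the median of all genes at 0.19). The AICAR effects in HSALR and control muscle differed by 0.19 (95% interval -0.27 to 0.66, edgeR adjusted p = 0.724). Between genotypes, the difference of Mbnl2 was -0.13 after vehicle (95% interval -0.46 to 0.20) and 0.07 after AICAR (-0.26 to 0.40), and neither was called.

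Mbnl3 was close to the limit of detection, with 8 to 42 reads per library. It was at 0.299, 0.319 and 0.571 normalized CPM in control vehicle, 0.264, 0.299, 0.504, 0.305 and 0.360 in HSALR vehicle, 0.171, 0.406 and 0.201 in control AICAR and 0.110, 0.334, 0.156, 0.143 and 0.229 in HSALR AICAR libraries. The AICAR groups overlapped the vehicle groups. With AICAR the log2 fold change was -0.82 (95% interval -1.55 to -0.09, edgeR adjusted p = 0.0899) in HSALR muscle and -0.60 (-1.52 to 0.31, edgeR adjusted p = 0.384) in control muscle. Without S455, the HSALR AICAR library with the highest value, the HSALR change was -1.11 (edgeR adjusted p = 0.0314).

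The make-up of the MBNL transcripts was described by the share of each gene in the reads per length of Mbnl1, Mbnl2 and Mbnl3 together. Mbnl1 held 62.0, 61.5 and 60.0% in control vehicle and 57.2, 56.7, 58.5, 62.3 and 61.3% in HSALR vehicle libraries. It held 59.1, 50.9 and 47.3% in control AICAR and 46.8, 47.8, 52.1, 46.0 and 46.7% in HSALR AICAR libraries. In HSALR muscle, the groups did not overlap between vehicle (59.2 ± 2.495%, SD, n = 5) and AICAR (47.9 ± 2.46%, n = 5). This difference of -11.3 percentage points had the smallest p that the design allows (two-sided exact permutation p = 0.00794, adjusted p = 0.0595 over the 20 share comparisons). In control muscle the difference of -8.74 points also separated the groups, where 3 against 3 mice cannot give a p below 0.10 (exact permutation p = 0.10, adjusted p = 0.222). The share of Mbnl2 is nearly the complement and is no separate result. The 3 genes together were at 135 ± 6.34 normalized CPM per kb in control vehicle, 117 ± 17.1 in HSALR vehicle, 148 ± 18.6 in control AICAR and 142 ± 6.76 in HSALR AICAR muscle.

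**Figure D3:**
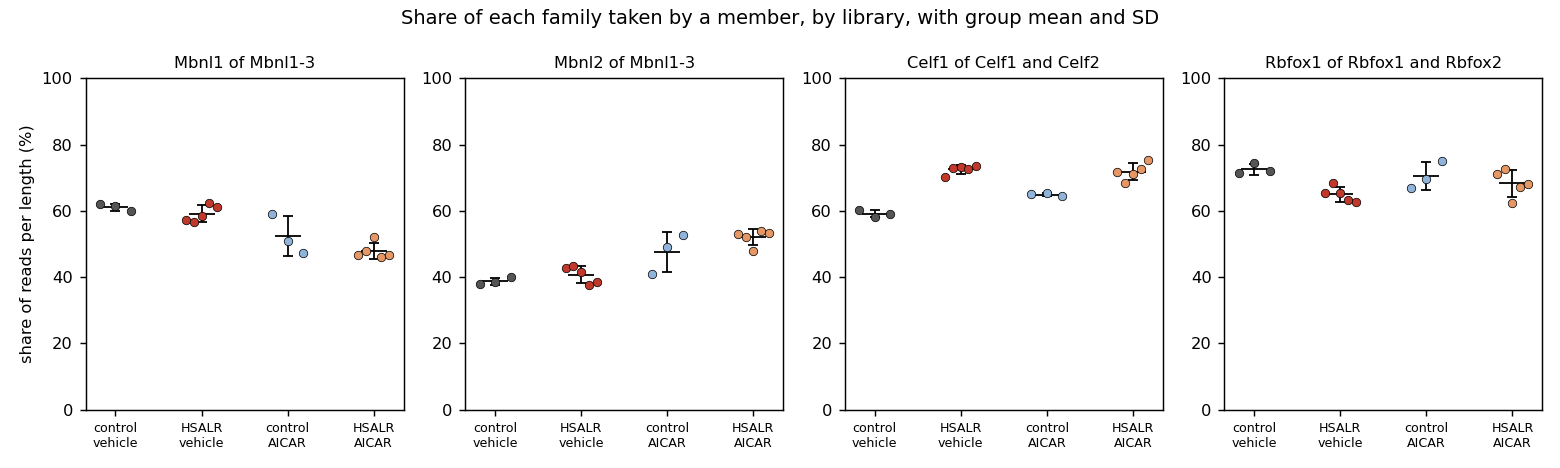
Share of reads per length (y axis, 0 to 100%) taken by Mbnl1 and by Mbnl2 within Mbnl1 to Mbnl3, by Celf1 within Celf1 and Celf2, and by Rbfox1 within Rbfox1 and Rbfox2, by group (x axis), with 1 point per library and the group mean and SD in black. Mbnl1 lies at 56.7 to 62.3% in HSALR vehicle and 46.0 to 52.1% in HSALR AICAR libraries, and Celf1 at 58.2 to 60.3% in control vehicle and 70.1 to 73.6% in HSALR vehicle libraries.

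Celf1 and Celf2 encode RNA-binding proteins that act in splicing, in mRNA decay and in translation. In myotonic dystrophy the CELF1 protein is known to rise through its phosphorylation, a change that transcript counts do not hold. Celf1 lies at chr2:90940259-91019497 and Celf2 at chr2:6539694-7396341 (GRCm38).

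Celf1 was at 134, 122 and 136 normalized CPM in control vehicle and 129.7, 148, 146, 113 and 121 in HSALR vehicle libraries, and the groups overlapped. The log2 fold change between genotypes was 0.01, with a 95% interval of -0.18 to 0.21 (edgeR adjusted p = 0.938). With AICAR, Celf1 was at 136, 133 and 165 in control and 159.5, 144, 154, 142 and 153 in HSALR muscle. AICAR against vehicle gave 0.20 ± 0.08 in HSALR muscle (edgeR adjusted p = 0.0827), which passed the threshold without S452 (0.24, edgeR adjusted p = 0.0399) and with the length trend removed (0.19, edgeR adjusted p = 0.0384).

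Celf2 had the largest genotype difference of the 10 genes after vehicle. It was at 106, 105 and 114 normalized CPM in control vehicle and at 66.4, 66.0, 63.6, 51.3 and 52.2 in HSALR vehicle libraries, far apart. The log2 fold change was -0.85 ± 0.11, a fold of 0.553 (95% interval 0.469 to 0.653, edgeR adjusted p = 5.9e-05). It was called with each mouse left out in turn (-0.91 to -0.80) and with the length trend removed (-0.69, edgeR adjusted p = 0.000185), and not called without the libraries with epidermal RNA (-0.67, edgeR adjusted p = 0.0591).

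After AICAR, Celf2 was at 88.3, 84.7 and 109.8 normalized CPM in control and at 75.3, 79.5, 75.4, 64.05 and 60.4 in HSALR libraries, still without overlap. The log2 fold change was -0.41 ± 0.11 (fold 0.752, 95% interval 0.637 to 0.889, edgeR adjusted p = 0.0177). It was not called without control mouse S449, which had the highest value (-0.29, edgeR adjusted p = 0.109), nor with the length trend removed (-0.27, edgeR adjusted p = 0.0773). AICAR against vehicle gave 0.24 in HSALR muscle (edgeR adjusted p = 0.0819, and 0.0448 without S463) and -0.20 in control muscle (edgeR adjusted p = 0.325). The difference of these effects was 0.44 (95% interval 0.10 to 0.79), with an unadjusted p of 0.0147 and an edgeR adjusted p of 0.216.

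Markers of blood vessel cells were lower between genotypes after vehicle, as were Celf2, Mbnl1 and Rbfox1, and in bulk muscle fewer cells of a type and less RNA per cell cannot be told apart. After vehicle, 5 of 5 endothelial markers and 4 of 4 markers of smooth muscle and pericytes were called lower in HSALR muscle, beside 11.5% of all genes. The list medians were -0.49 and -0.36. The summed endothelial level was 163 to 213 normalized CPM in HSALR vehicle and 247 to 274 in control vehicle libraries, and that of smooth muscle and pericytes 287 to 328 and 377 to 417. After AICAR, 2 of 5 and 2 of 4 were called lower, beside 9.64% of all genes, with sums of 204 to 228 against 254 to 273 and of 273 to 313 against 338 to 382. No marker of either list was at 0 in all libraries of a group, and the part of these cells in the Celf2, Mbnl1 and Rbfox1 results was not tested. Of 5 markers of macrophages and leukocytes, 2 were called higher in HSALR muscle after vehicle, beside 15.4% of all genes, as were Dmpk and Cnbp. The 2 markers were Csf1r (0.47, edgeR adjusted p = 0.0149) and Cd68 (0.77, 0.00942). The summed level of the list was 80.5 to 109 against 62.6 to 88.2 normalized CPM, with no marker at 0 in all libraries of a group. With AICAR in HSALR muscle 1 of the 5, Csf1r, was called lower (-0.32, edgeR adjusted p = 0.0468), beside 13.0% of all genes. The part of these cells in the results was not tested.

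Celf1 took a larger share of the reads per length of Celf1 and Celf2 in HSALR muscle. It held 60.3, 58.2 and 59.0% in control vehicle and 70.1, 73.0, 73.4, 72.6 and 73.6% in HSALR vehicle libraries. After AICAR it held 65.0, 65.4 and 64.4% in control and 71.8, 68.5, 71.1, 72.7 and 75.3% in HSALR libraries. Both differences, 13.4 and 6.96 percentage points, separated the groups with the smallest p that 5 against 3 mice allow (two-sided exact permutation p = 0.0179, adjusted p = 0.0595 over 20).

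Of the 5 other genes of these families, Celf3 and Celf4, which encode CELF proteins best known from the nervous system, were called higher in HSALR muscle at low levels. These were 2 of 3 tested under each treatment, beside 15.4% of all genes called higher after vehicle and 12.2% after AICAR. Celf4 was at 0.204, 0.285 and 0.190 normalized CPM in control vehicle (S446, S445 and S450) and at 1.12 to 1.503 in HSALR vehicle libraries, on 14 to 20 and 83 to 108 reads. Its log2 fold change was 2.52 ± 0.39 (edgeR adjusted p = 0.000256), and 1.83 ± 0.38 after AICAR (edgeR adjusted p = 0.00321), called under all 27 alternatives in both. Among the HSALR AICAR libraries, S460 at 2.06 was above the others, at 0.668 to 0.979. Celf3 rested on 2 to 7 reads in control vehicle and 9 to 24 in HSALR vehicle libraries, with a log2 fold change of 1.84 ± 0.46 (edgeR adjusted p = 0.00811), and of 1.69 ± 0.45 after AICAR (edgeR adjusted p = 0.0152). The Celf3 calls were lost without the libraries with epidermal RNA (1.41 and 1.46, edgeR adjusted p = 0.289 and 0.0768), and after AICAR also without S448 (1.46, edgeR adjusted p = 0.0706). Celf5 was not called (-0.12, edgeR adjusted p = 0.817), and Celf6 and Rbfox3, with at most 4 reads in a library, were not tested.

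Rbfox1 and Rbfox2 encode splicing factors that bind GCAUG in introns beside regulated exons, and RBFOX1 is the main form in adult muscle and neurons. Rbfox1 lies at chr16:5884793-7412480 and Rbfox2 at chr15:77078990-77308434 (GRCm38).

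Rbfox1 was at 221, 211 and 205 normalized CPM in control vehicle and 151, 166, 166, 129.5 and 167 in HSALR vehicle libraries, with no overlap. It was lower in HSALR muscle by a log2 fold change of -0.44 ± 0.11 (fold 0.736, 95% interval 0.622 to 0.870, edgeR adjusted p = 0.00944). This was called with each mouse left out in turn (-0.48 to -0.38) and with the length trend removed (-0.35, edgeR adjusted p = 0.0238). It was not called when scaled to Tbp (-0.17, edgeR adjusted p = 0.373, with the median of all genes at 0.28), nor without the libraries with epidermal RNA (-0.52, edgeR adjusted p = 0.152).

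After AICAR, Rbfox1 was at 179, 171 and 245 in control and 191, 207, 187, 167 and 164 in HSALR libraries, and the groups overlapped. The genotype difference was then -0.11 (95% interval -0.36 to 0.13, edgeR adjusted p = 0.507). The AICAR effects in HSALR muscle (0.23, edgeR adjusted p = 0.10) and control muscle (-0.10, edgeR adjusted p = 0.669) differed by 0.33 (95% interval -0.02 to 0.68, edgeR adjusted p = 0.361). Without control mouse S449 in the fit, the effect in HSALR muscle was 0.23 with an edgeR adjusted p of 0.0393.

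Rbfox2 was at 119, 97.1 and 107 normalized CPM in control vehicle, 107, 104, 118, 101 and 133 in HSALR vehicle, 119, 101 and 109 in control AICAR and 104, 105, 151, 109 and 102 in HSALR AICAR libraries. S460 at 151 stood above every other library. No comparison called Rbfox2, with log2 fold changes of 0.02 to 0.06 in all 4, and the widest 95% interval ran from -0.27 to 0.32. The share of Rbfox1 in Rbfox1 and Rbfox2 per length was 72.6 ± 1.63% (SD, n = 3) in control vehicle and 65.0 ± 2.20% (n = 5) in HSALR vehicle muscle, without overlap (exact permutation p = 0.0179, adjusted p = 0.0595 over 20). After AICAR it was 70.5 ± 4.21% and 68.3 ± 3.97%, with overlap (exact permutation p = 0.50).

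Dmpk encodes a serine-threonine kinase of muscle, and Six5, the next gene, encodes a homeodomain transcription factor. Dmpk lies at chr7:19083646-19093821 and Six5 at chr7:19094544-19098549 on the same strand (GRCm38), with 722 bases between their annotated ends. The longest run of CTG in the 18 annotated mouse Dmpk transcripts had 3 units. The promoter sequences, from 250 bases before to 50 after a RefSeq transcript start on the plus strand of GRCm38.p6, are shown because both genes fell with AICAR in HSALR muscle. The start used for Dmpk lies inside the gene as placed above, downstream of its outermost annotated end, so most of that window is within the annotated gene. Capitals mark E-boxes (CANNTG), GC boxes (GGGCGG) and CCAAT boxes (CCAAT), searched on both strands.
Dmpk, chr7:19083608-19083907: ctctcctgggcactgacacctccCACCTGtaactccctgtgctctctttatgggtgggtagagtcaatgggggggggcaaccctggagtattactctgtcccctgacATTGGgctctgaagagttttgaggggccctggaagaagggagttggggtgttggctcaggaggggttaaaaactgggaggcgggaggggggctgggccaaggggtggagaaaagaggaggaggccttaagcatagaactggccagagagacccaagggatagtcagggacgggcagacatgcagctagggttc
Six5, chr7:19094294-19094593: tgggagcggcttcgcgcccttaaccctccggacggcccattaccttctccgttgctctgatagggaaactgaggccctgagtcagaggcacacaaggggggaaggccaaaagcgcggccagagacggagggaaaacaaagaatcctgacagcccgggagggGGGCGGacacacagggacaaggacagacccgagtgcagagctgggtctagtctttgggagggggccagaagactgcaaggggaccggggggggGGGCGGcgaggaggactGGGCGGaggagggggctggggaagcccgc
The Dmpk window held 1 E-box, 1 CCAAT box and no GC box, and the Six5 window held 3 GC boxes and neither of the others. Of all 32851 promoters of this length, 72.3% held an E-box, 35.7% a GC box and 37.4% a CCAAT box. A match is a description of the letters and not of a bound site.

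Dmpk was at 382, 379, 322, 412 and 372 normalized CPM in the HSALR vehicle libraries and at 197, 163, 184, 222 and 199 in the HSALR AICAR libraries. The groups lay far apart, with the lowest vehicle library (S453) well above the highest AICAR library (S462). Dmpk fell with AICAR by 0.95 ± 0.08 on the log2 scale, a fold of 0.517 (95% interval 0.460 to 0.580, edgeR adjusted p = 1.4e-06). It was called under all 27 alternatives, with a log2 fold change of -1.06 to -0.90.

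In control muscle Dmpk was at 295, 306 and 309.7 after vehicle and at 200.3, 217 and 189.9 after AICAR. It fell by 0.58 ± 0.10 on the log2 scale (fold 0.667, 95% interval 0.575 to 0.774, edgeR adjusted p = 0.00179), and was not called when scaled to Tbp (-0.38, edgeR adjusted p = 0.108, with the median of all genes at 0.19). The fall was larger in HSALR than in control muscle by -0.37 (95% interval -0.64 to -0.10), with an unadjusted p of 0.0107 and an edgeR adjusted p of 0.193, so the difference did not pass the threshold.

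Between genotypes after vehicle, Dmpk was higher in HSALR muscle by 0.30 ± 0.09 (fold 1.23, 95% interval 1.08 to 1.41, edgeR adjusted p = 0.023), with S453 at 322 just above the control libraries. This call was lost without control mouse S445 (edgeR adjusted p = 0.0884), S446 (0.0565) or S450 (0.0518), or HSALR mouse S452 (0.0504), at log2 fold changes of 0.28 to 0.31, and without the libraries with epidermal RNA (0.34, 0.237). Under the alternatives other than leaving out a mouse, the difference after vehicle ran from 0.29 to 0.57. After AICAR the difference was -0.07 (95% interval -0.26 to 0.12, edgeR adjusted p = 0.614).

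Six5 was a gene of low abundance, at 3.33, 2.62, 2.45, 4.24 and 3.36 normalized CPM in HSALR vehicle and 1.66, 1.87, 2.22, 1.93 and 1.65 in HSALR AICAR libraries. The groups did not overlap. Six5 fell by 0.78 ± 0.16 on the log2 scale (fold 0.583, 95% interval 0.461 to 0.738, edgeR adjusted p = 0.00243), and the call held with each mouse left out in turn (-0.86 to -0.66) and was lost without the libraries with epidermal RNA (-0.84, edgeR adjusted p = 0.0785).

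In control muscle Six5 was at 3.71, 4.02 and 4.08 after vehicle and 3.34, 2.4998 and 1.99 after AICAR, without overlap. The log2 fold change was -0.59 ± 0.20 (edgeR adjusted p = 0.0673), and it passed the threshold with DESeq2 (-0.59, adjusted p = 0.0341), with limma (-0.62, adjusted p = 0.0474), without S458 (-0.59, edgeR adjusted p = 0.0429) and without S447 (-0.81, edgeR adjusted p = 0.0242). The AICAR effects differed by -0.19 between genotypes (95% interval -0.74 to 0.36, edgeR adjusted p = 0.779). After AICAR, Six5 was at -0.48 in HSALR against control muscle (edgeR adjusted p = 0.0696), and passed the threshold with DESeq2 (-0.50, adjusted p = 0.0419) and without S458 (-0.48, edgeR adjusted p = 0.0443), S449 (-0.65, 0.0323) or S460 (-0.55, 0.0455).

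Among the genes on either side, AICAR called 1 of 5 tested in HSALR muscle, beside 26.6% of all genes, and 0 of 5 in control muscle, beside 13.2% of all genes, where 2 had an unadjusted edgeR p under 0.05. Of the 3 nearest genes on each side, Rsph6a had too few reads to be tested. In HSALR muscle the log2 fold changes with AICAR were 0.01 for Sympk, -0.17 for Dmwd (edgeR adjusted p = 0.0643), -0.01 for Fbxo46, -0.39 for Qpctl (edgeR adjusted p = 0.0251) and 0.01 for Snrpd2. In control muscle they ran from -0.25 to 0.16 and none was called. Between genotypes, Sympk (-0.34 after vehicle, -0.38 after AICAR) and Dmwd (-0.28 and -0.58) were called lower in HSALR muscle, although Dmwd after vehicle lay at 0.000845 when scaled to Tbp. Snrpd2 was called higher after vehicle (0.25). The Qpctl call was lost without S451, S453, S454, S455 or S460, and those of Dmwd and Snrpd2 after vehicle without S450 (edgeR adjusted p = 0.0575 and 0.0501). Qpctl was not called with the epidermal score in the fit (-0.38, edgeR adjusted p = 0.137), nor without the libraries with epidermal RNA (-0.57, 0.181). After vehicle, Sympk was at -0.07 when scaled to Tbp (edgeR adjusted p = 0.663), Snrpd2 at 0.05 with the length trend removed (0.447), and without the libraries with epidermal RNA Dmwd was at -0.15 (0.574), Snrpd2 at 0.11 (0.609) and Sympk at -0.38 (0.0926).

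**Figure D4:**
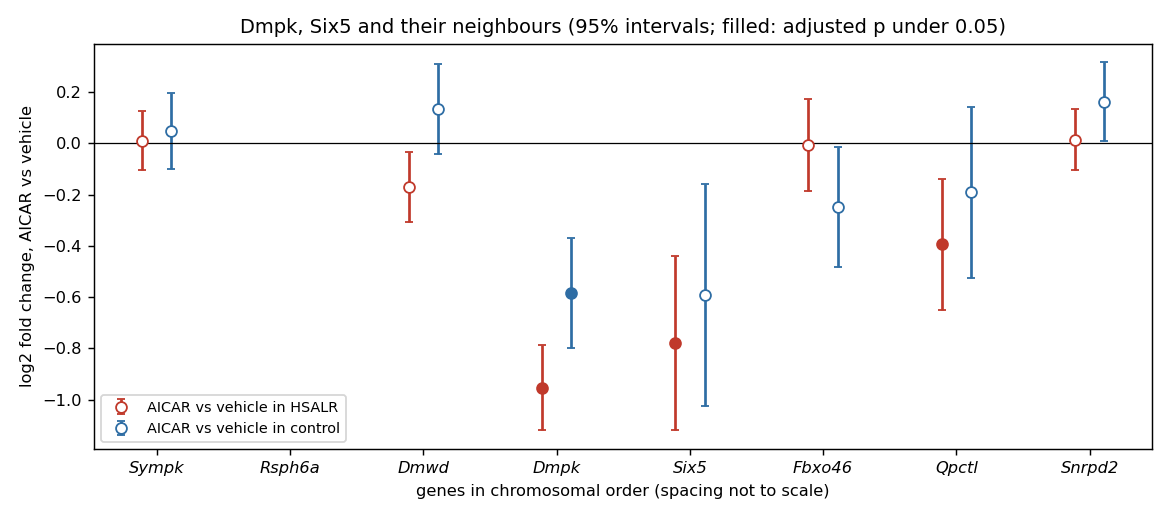
Log2 fold change of AICAR against vehicle (y axis) for Dmpk, Six5 and the 3 nearest genes on each side in chromosomal order (x axis), in HSALR (red) and control (blue) muscle, with 95% intervals and filled points where the edgeR adjusted p is under 0.05. Dmpk (-0.95 and -0.58) and Six5 (-0.78 and -0.59) lie lowest, and Rsph6a was not tested.

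The promoter of Mbnl2, the gene that rose with AICAR, is given for comparison with the same marks. The promoter of Cnbp, which also fell with AICAR, is not printed, and it held a GC box, a CCAAT box and no E-box. The Mbnl2 window held 1 GC box, 2 CCAAT boxes and no E-box.
Mbnl2, chr14:120275419-120275718: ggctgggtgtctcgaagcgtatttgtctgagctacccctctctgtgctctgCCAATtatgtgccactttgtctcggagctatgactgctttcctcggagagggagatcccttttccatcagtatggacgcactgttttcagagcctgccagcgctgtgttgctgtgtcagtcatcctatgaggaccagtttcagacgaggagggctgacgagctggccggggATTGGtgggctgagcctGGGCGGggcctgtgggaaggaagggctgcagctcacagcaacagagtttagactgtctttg

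Cnbp, at chr6:87842615-87851106 (GRCm38), encodes a zinc finger protein that binds nucleic acids and acts in translation. It was at 610.4, 614 and 648 normalized CPM in control vehicle and 656, 766, 736, 667 and 719 in HSALR vehicle libraries, and at 571, 521 and 520.0 in control AICAR and 618, 615, 667, 624 and 611 in HSALR AICAR libraries. HSALR libraries were above control libraries under both treatments. The log2 fold change between genotypes was 0.18 ± 0.06 after vehicle (fold 1.14, 95% interval 1.04 to 1.24, edgeR adjusted p = 0.0351) and 0.22 ± 0.06 after AICAR (fold 1.17, 1.07 to 1.28, edgeR adjusted p = 0.017).

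These small differences were near the threshold. After vehicle, the Cnbp value reached 0.46 among the alternatives other than leaving out a mouse. The call held under 15 of 27 alternatives, and was lost without each of S445, S446, S452, S453, S459 and S448 (0.14 to 0.18, edgeR adjusted p = 0.0607 to 0.125). It was lost furthest without the libraries with epidermal RNA (0.09, edgeR adjusted p = 0.642), and also with the epidermal score in the fit (0.16, 0.0911), with the length trend removed (0.14, 0.116), with only the 2 groups compared (0.18, 0.0953), under RLE scaling (0.17, 0.0518) and with no filter (0.19, 0.0523). After AICAR it held under 23 of 27, and was lost without S448 (0.20, edgeR adjusted p = 0.0768) or S449 (0.20, 0.0624), when scaled to Tbp (0.18, 0.376) and without the libraries with epidermal RNA (0.20, 0.0634). The markers of satellite cells, the muscle stem cells, summed to 3.62 to 6.21 normalized CPM in HSALR vehicle against 1.95 to 3.48 in control vehicle libraries, and to 2.80 to 3.72 against 1.39 to 1.95 after AICAR. Of these markers, 1 of 4 and 2 of 4 were called higher, beside 15.4% and 12.2% of all genes. With AICAR 1 of the 4, Pax7, was called lower in HSALR (-0.70, edgeR adjusted p = 0.0108) and in control muscle (-1.06, 0.0126), beside 13.0% and 4.77% of all genes. The list medians were -0.46 and -0.64. Their part in the Cnbp values was not tested.

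Cnbp fell with AICAR in HSALR muscle by 0.18 ± 0.05 on the log2 scale (fold 0.884, 95% interval 0.818 to 0.955, edgeR adjusted p = 0.0209), although S451 after vehicle (656) was below S460 after AICAR (667). In control muscle it fell by 0.22 ± 0.07 (fold 0.861, 0.779 to 0.951, edgeR adjusted p = 0.0465). The HSALR call was lost without S452 (-0.15, edgeR adjusted p = 0.0597) or S453 (-0.16, 0.0528), with the epidermal score in the fit (-0.13, 0.249), without the libraries with epidermal RNA (-0.07, 0.693) and when scaled to Tbp (-0.29, 0.064). The control call held under 10 of 27 alternatives, was lost without any of 11 mice (S445, S446, S450, S453, S459, S448, S449, S454, S455, S462 and S463), and was lost with the epidermal score in the fit (-0.21, edgeR adjusted p = 0.0615), without the libraries with epidermal RNA (-0.18, 0.216) and when scaled to Tbp (-0.01, 0.965). Of the nearest genes around Cnbp, Gp9 was not tested, and with AICAR in HSALR muscle Copg1 rose (0.16), H1f10 fell (-0.83), and Isy1, Rab43 and Hmces were not called, which makes 2 of 5 beside 26.6% of all genes. In control muscle Isy1 (0.36) and Hmces (0.36) rose, 2 of 5 beside 13.2% of all genes. Between genotypes, Hmces was called higher after vehicle (0.36) and Isy1 lower after AICAR (-0.37) in HSALR muscle. The Copg1 call held under 16 of 27 alternatives, that of H1f10 was lost without S451, S459 or S463, and that of Hmces in control muscle without S445 or S447. With the epidermal score in the fit H1f10 was at -0.61 (edgeR adjusted p = 0.231) and Copg1 at 0.12 (0.313), and without the libraries with epidermal RNA they were at -1.01 (0.136) and 0.21 (0.259). Hmces was then at 0.45 after vehicle (edgeR adjusted p = 0.135).

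The test of whether AICAR acted differently in HSALR and control muscle called none of the 10 genes, beside 0.691% of all tested genes. With edgeR, 2 of the 10 had an unadjusted p under 0.05, Dmpk and Celf2, with values given above. DESeq2 and limma also called 0 of 10, as did every other alternative but the fit of only the groups compared, which this test cannot use. For the genes not named above the differences were 0.08 for Mbnl1 (95% interval -0.16 to 0.33), 0.04 for Celf1 (-0.23 to 0.32), -0.00 for Rbfox2 (-0.38 to 0.38), 0.04 for Cnbp (-0.14 to 0.22) and -0.22 for Mbnl3 (-1.38 to 0.95).

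For each gene, the genes of most similar pattern over the 16 libraries were taken by Pearson's r of log2 normalized CPM, from 12976 genes with a mean of at least 50 counts. These are descriptions, and the libraries share group, depth and other technical traits, so r is also given for deviations from the group means. Mbnl1 was closest to Rnf11 (r = 0.938, within groups 0.873) and Capza2 (0.923, 0.869). Mbnl2 was closest to Atp7a (0.965, 0.968) and Optn (0.947, 0.876), and Mbnl3 to Rab11fip1 (0.879, 0.814) and Gltp (0.864, 0.828). The value for Atp7a, which encodes a copper transporter, was as high within groups as over all libraries.

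Celf1 was closest to Srp54c (r = 0.921, within groups 0.910) and Srp54a (0.873, 0.845), near-identical copies whose reads the counting could split. Celf2 was close to Pla2g7 (0.957, 0.747), Rbfox1 was closest to 5730455P16Rik (0.934, 0.856) and Arhgef17 (0.912, 0.799), and Rbfox2 to Gramd1a (0.783, 0.784) and Thra (0.770, 0.835). Dmpk was closest to Cdkn1c (0.941), which encodes a cell cycle inhibitor, and its r within groups was 0.297. The next gene was Tfcp2 (0.938, 0.704). Six5 was closest to Intu (0.929, 0.703) and Lrrc38 (0.921, 0.740), and Cnbp to Pax7 (0.946, 0.700), the satellite cell transcription factor, and Tsn (0.942, 0.781).

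Of 16 proteins that bind or modify CUG repeat RNA or its foci, 4 were called between genotypes after vehicle, beside 26.9% of all genes, 2 higher and 2 lower, with a list median of -0.05. For all genes the medians were 0.01 between genotypes after vehicle, 0.00 after AICAR, -0.02 with AICAR in HSALR and -0.01 in control muscle. Hnrnpa1 (0.31, edgeR adjusted p = 0.0211) and Hnrnpc (0.25, 0.00601), which encode abundant nuclear RNA-binding proteins, were higher. The RNA-editing enzyme gene Adar (-0.29, 0.016) and Eif2ak2 (-0.30, 0.0255), which encodes the double-stranded RNA sensor PKR, were lower. After AICAR, 1 was higher and 2 lower (median -0.02), beside 12.2% and 9.64% of all genes, with Hnrnpa1 again higher (0.44) and Eif2ak2 (-0.32) and Hnrnpf (-0.18) lower. AICAR against vehicle in HSALR muscle called 1 higher, Hnrnpa2b1 (0.22), and 2 lower, Hnrnpc (-0.25) and the RNA helicase gene Ddx17 (-0.24), with a median of -0.03, beside 13.7% and 13.0% of all genes. In control muscle, Hnrnpf rose (0.36) and Adar fell (-0.34), with a median of -0.06, beside 13.2% of all genes called. Calls were lost with 1 mouse left out for Hnrnpa1 (S446, S450 or S452), Adar (S445 or S446) and Eif2ak2 (S445, S450, S453 or S458) after vehicle, for Eif2ak2 after AICAR (S447, S448, S449 or S454) and for Adar in control muscle (S445, S446, S447 or S449). After vehicle, Eif2ak2 was at -0.03 without the libraries with epidermal RNA (edgeR adjusted p = 0.938) and at -0.02 when scaled to Tbp (0.932), and Adar was at -0.18 (0.527) and -0.03 (0.886), and at -0.19 with the length trend removed (0.146). When scaled to Tbp, Adar was at -0.15 with AICAR in control muscle (edgeR adjusted p = 0.505) and Hnrnpa2b1 at 0.11 in HSALR muscle (0.485).

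Of 10 genes known to regulate CELF1 protein, 3 were called lower and none higher in HSALR muscle after vehicle, beside 11.5% and 15.4% of all genes, with a list median of -0.12. These were Prkca, which encodes a protein kinase C (-0.35, edgeR adjusted p = 0.0173), Akt2 (-0.18, 0.0269) and Gsk3a (-0.16, 0.0411), of which Akt2 (0.09) and Gsk3a (0.11) turned positive when scaled to Tbp. With 1 mouse left out, the call of Prkca was lost without S445 or S446, that of Akt2 without S445, S446, S450 or S458, and that of Gsk3a without any of 8 mice (S445, S446, S450, S451, S453, S459, S447 and S462). Prkca was at -0.08 when scaled to Tbp (edgeR adjusted p = 0.701) and at -0.20 with the length trend removed (0.0733). After AICAR, Ccnd3 (-0.51) and Gsk3a (-0.16, edgeR adjusted p = 0.0487) were called lower (median -0.07), beside 9.64% of all genes. The Gsk3a call held under 10 of 27 alternatives and was lost without any of 12 mice, all but S448, S451, S452 and S458, and the Ccnd3 call was lost without S447 (-0.40, edgeR adjusted p = 0.117) or S463 (-0.46, 0.0503). AICAR in HSALR muscle called 4 higher and none lower (median 0.05), beside 13.7% and 13.0% of all genes, namely Akt1 (0.41, edgeR adjusted p = 4.55e-05), Prkca (0.37, 0.00574), Prkcd (0.41, 0.0147) and Akt2 (0.17, 0.0188). The Akt2 call was also lost without S454 or S455. With the epidermal score in the fit Akt1 alone was called, with Prkca at 0.15 (edgeR adjusted p = 0.233), Akt2 at 0.16 (0.144) and Prkcd at 0.44 (0.0703). Under library size scaling Akt2 was at 0.09 (edgeR adjusted p = 0.189) and Prkcd at 0.33 (0.065), and under Tbp scaling Akt2 was at 0.06 (0.675), Prkca at 0.26 (0.152) and Prkcd at 0.30 (0.0852). Akt1 also rose in control muscle (0.57, edgeR adjusted p = 6.99e-05), as the only call of the list there (median 0.07, beside 13.2% of all genes called).

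Of 25 transcripts known to be spliced under MBNL control, 9 were called between genotypes after vehicle, 4 higher and 5 lower, beside 15.4% and 11.5% of all genes, with a list median of -0.15. Clcn1, which encodes the muscle chloride channel, was lower (-1.01 ± 0.11, edgeR adjusted p = 9.39e-06). Pdlim3, a Z-disc protein gene (1.21 ± 0.09, 4.9e-07), Camk2d (1.12 ± 0.12, 1.13e-05) and Camk2b (0.45 ± 0.08, 0.000517), which encode CaM kinase II subunits, were higher. After AICAR, 5 were higher and 1 lower (median -0.01), beside 12.2% and 9.64% of all genes, with Pdlim3 at 1.19, Camk2b at 0.51 and Clcn1 at -0.51.

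AICAR in HSALR muscle called 13 of these 25 transcripts, 9 higher and 4 lower (median 0.11), beside 13.7% and 13.0% of all genes. Pdlim3 fell (-0.60, edgeR adjusted p = 7.48e-05), and Pkm, a glycolytic enzyme gene (0.53, 0.000123), and Camk2b (0.33, 0.00166) rose. The Camk2b call in HSALR muscle was lost when scaled to Tbp (0.22, edgeR adjusted p = 0.126) and with the epidermal score in the fit (0.25, 0.059). In control muscle 3 were called, with Pkm (0.44) and Camk2b (0.27) higher and Pdlim3 lower (-0.59), and the list median was -0.03, beside 13.2% of all genes called. This Camk2b call held under 13 of 27 alternatives. It was lost without any of 11 mice, all but S448, S452, S458, S460 and S463, and without S449 the value was 0.15 (edgeR adjusted p = 0.187). These are totals of each transcript, and their splicing was not analysed here.

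Of 13 transcripts known to be spliced under RBFOX control in muscle, which include Mbnl1, 5 were called between genotypes after vehicle, 3 higher and 2 lower (median -0.11), beside 15.4% and 11.5% of all genes. Enah, an actin regulator gene (1.28 ± 0.16, edgeR adjusted p = 4.14e-05), the tropomyosin gene Tpm2 (0.53 ± 0.12, 0.0054) and Ank3 (0.39 ± 0.11, 0.0141) were higher, and the muscle protease gene Capn3 (-0.30 ± 0.07, 0.00753) was lower. The Ank3 call was lost without S450 (0.32, edgeR adjusted p = 0.0736), and Capn3 was at -0.02 when scaled to Tbp (edgeR adjusted p = 0.917). After AICAR, 2 were higher, among them Tpm2 (0.57), and 3 lower, Fmnl3 (-0.54), Actn1 (-0.56) and Tsc2 (-0.27), with a median of -0.02, beside 12.2% and 9.64% of all genes. Without control mouse S449, Tsc2 was at -0.16 and not called (edgeR adjusted p = 0.092). AICAR in HSALR muscle called 3 higher, Ktn1 (0.46), Mef2d (0.38) and Mef2a (0.38), and 2 lower, among them Enah (-0.90, edgeR adjusted p = 0.000233), with a median of -0.00, beside 13.7% and 13.0% of all genes. The Mef2a call was lost without S459, S454 or S455, with the epidermal score in the fit (0.37, edgeR adjusted p = 0.132), under scaling to Tbp (0.26, 0.115) or to library size (0.30, 0.0587), and without the libraries with epidermal RNA (0.26, 0.468). In control muscle Ktn1 (0.40) was the only call, beside 13.2% of all genes.

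Of the calls named from the 4 lists above, those that held under all 27 alternatives were Clcn1, Pdlim3, Camk2d and Enah between genotypes after vehicle, and Clcn1, Pdlim3, Camk2b, Fmnl3, Actn1 and Tpm2 after AICAR. With AICAR they were Akt1, Pdlim3, Pkm and Enah in HSALR muscle and Akt1, Hnrnpf and Ktn1 in control muscle. The other calls named there were each lost under at least 1 alternative, most often without the libraries with epidermal RNA or when scaled to Tbp.

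**Figure D5:**
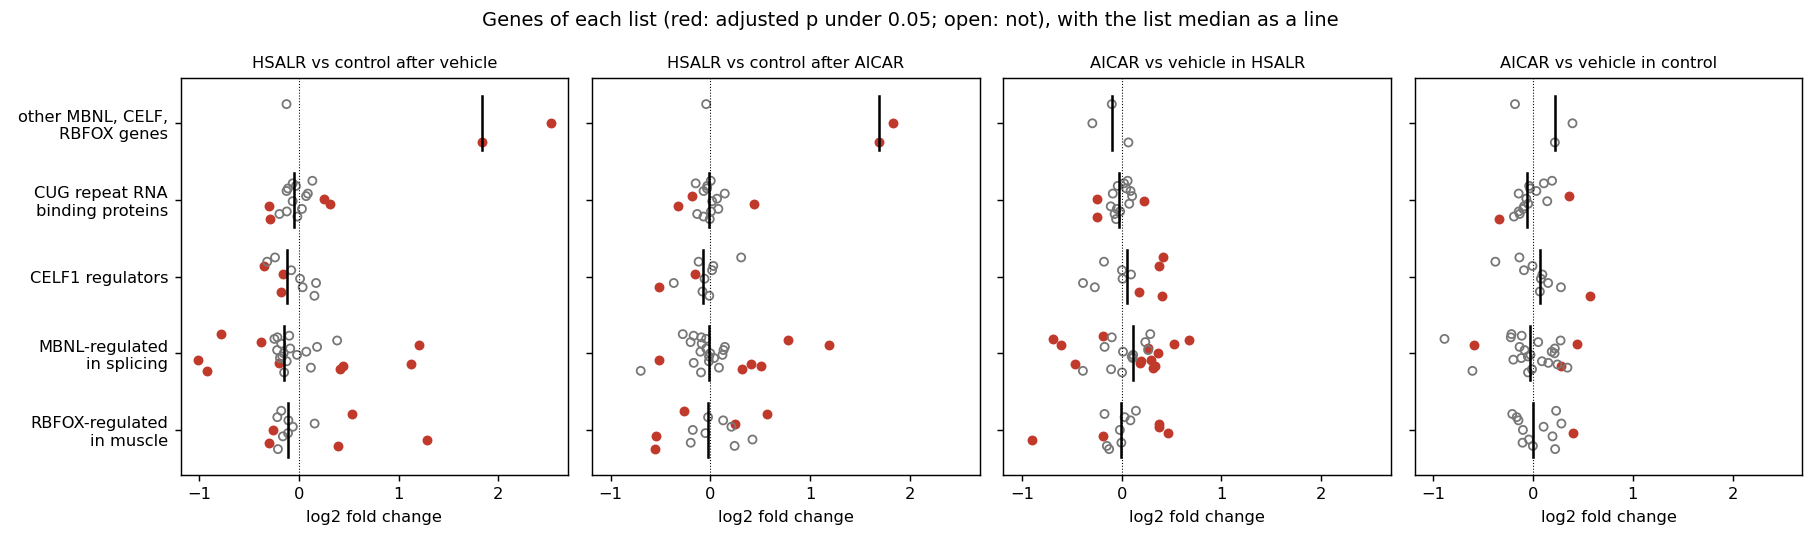
Log2 fold change (x axis) of the tested genes of 5 lists (y axis) in 4 comparisons, red where the edgeR adjusted p is under 0.05 and open where it is not, with the list median as a black line. Celf4 (2.52) and Celf3 (1.84) lie far to the right after vehicle, and the medians of the 4 larger lists lie between -0.15 and 0.11 in every comparison.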

How the data were processed

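The authors mapped single-end reads of stranded TruSeq mRNA libraries to mm10 with STAR 2.5.2a, and per the study's methods counted reads that start in an exon of a RefSeq gene with QuasR. Whether the counting used the strand is not given in the sources used here. The deposited values are raw counts for 24454 genes in 16 libraries, with a gene length per row and 0 unused sample columns. Identifiers were matched to RefSeq symbols (24374 matched, 80 did not). The members and lists were chosen with earlier results of these data known.

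Counts were fitted with edgeR 4.0.16 (R 4.3.3): filterByExpr, TMM scaling, quasi-likelihood fit of 1 mean per group over all 16 libraries, and Benjamini-Hochberg adjustment over 15487 genes at 0.05. Intervals cover 95%. Normalized CPM used TMM library sizes, and levels between genes were divided by length. Family shares were compared by exact permutation tests. The p-values set a difference of group means against the spread between mice within groups. That spread does not cover other differences between the HSALR line and the FVB/N mice. Named genes were all 10 members, up to 4 called genes of the lowest adjusted p per list and comparison, all genes of lists of up to 6, the 3 nearest genes on each side of the loci, and the 2 most similar genes (pseudocount 0.5). Some genes that this rule names are not reported here. The main procedure was tested on counts with known changes.

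Alternatives were RLE, library size and Tbp scaling, DESeq2 1.42.0, limma 3.58.1 with voom, no filter or at least 10 counts in every library, only the groups compared, an epidermal score (the mean log2 level of the epidermal markers), leaving out libraries with epidermal RNA, and leaving out each mouse. Removal of each library's length trend was chosen after seeing the data. Promoter sequences are from RefSeq (GRCm38.p6) and exons from GENCODE vM21 (GRCm38, the same assembly as mm10). Promoters were found for 9 of the 10 genes.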

Additional observations from a re-analysis of the deposited data

Results flagged for a closer look

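Of 30 group values checked for a library far from the others in a group of 5, 4 stood apart, where chance gives about 1.5. In the HSALR AICAR group, S460 stood apart for 3 genes. Its Mbnl2 level was 286 normalized CPM beside 344 to 354 in the other 4 mice, its Rbfox2 level was 151 beside 102 to 109, and its Cnbp level was 667 beside 611 to 624. In the HSALR vehicle group, the share of Celf1 in Celf1 and Celf2 was 70.1% in S451 and 72.6 to 73.6% in the others. No cause was tested. No member passed the test of a different AICAR effect between genotypes.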

How the results depend on the processing

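Of 1335 values of single genes under alternatives, 1259 kept their direction or were called in neither fit, 59 lost a call, 16 gained one and 1 called value changed sign. Within the 1259, 52 uncalled values changed sign. The genotype comparison after vehicle called 5 of the 10 genes, beside 4169 of 15487 tested genes. It called 3 of the 10 under scaling to Tbp (5295 of 15487), with the epidermal score (3541 of 15487) and with the length trend removed (3797 of 15487). With only the groups compared it called 3 as well (3471 of 15197). Without the libraries with epidermal RNA, Mbnl1 was at -0.33, Celf2 at -0.67, Rbfox1 at -0.52, Dmpk at 0.34 and Cnbp at 0.09. That fit keeps 1 HSALR vehicle, 2 control vehicle and 2 control AICAR libraries, so its calls are not counted here (the lone library is assumed to vary like the others). Leaving out each mouse gave 2 to 5, beside 2826 to 4296 of all genes. After AICAR the count was 2 (3379 of 15487 tested genes), with 1 under scaling to Tbp (1396 of 15487) and with the length trend removed (3226 of 15487). With a mouse left out it was 1 to 3, beside 2214 to 3790 of all genes. AICAR in HSALR muscle called 4 genes (4121 of 15487 tested genes), and 3 to 5 with a mouse left out, beside 3146 to 4301 of all genes. Without the epidermal libraries, Mbnl2 was at 0.59, Six5 at -0.84 and Cnbp at -0.07 in this comparison, and Dmpk stayed between -1.06 and -0.93. AICAR in control muscle called 2 genes (2039 of 15487 tested genes). It called 1 under RLE scaling (2038 of 15487), Tbp scaling (2150 of 15487), no filter (1743 of 19992), only the groups compared (1164 of 14769) and the epidermal score (1942 of 15487). With a mouse left out it called 1 to 4, beside 1143 to 2186 of all genes. Without the epidermal libraries, Cnbp was at -0.18. The test of different AICAR effects called 0 under every alternative run for it that kept more than 1 library per group (it needs all 4 groups). The 20 share comparisons passed the threshold in 0 cases throughout, with 6 at an unadjusted exact permutation p under 0.05. Those 6 hold the shares of Mbnl1 and Mbnl2 with AICAR in HSALR muscle, which are near complements and 1 result. They also hold Mbnl3 in that comparison, on 8 to 34 reads per library. Under Tbp scaling after vehicle the median of all genes was 0.28, and Mbnl1 (0.0147), Akt2 (0.0901), Gsk3a (0.11) and Dmwd (0.000845) changed sign. The cause of these changes was not tested. No paired analysis was possible because each mouse has its own number and the groups share none.

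With 3 control mice per treatment, differences of the size of the Cnbp change were near the threshold. Mbnl3 rested on 8 to 42 reads per library, and Celf6 and Rbfox3 on 0 to 4, and the latter pair was not tested.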
